A study of Mus musculus and blank sample with 91 samples.

Results

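Fecal bacteria of EAE mice were compared with those of naive mice at 14 days post-immunization (dpi), the day at which some immunized mice had begun to show paralysis. Experimental autoimmune encephalomyelitis (EAE) is a mouse model of multiple sclerosis in which T cells are primed against a myelin protein and attack the central nervous system. The comparison used 11 of the 91 samples of the series, chosen by their labels: 5 EAE mice and 6 naive mice, each given by a fecal pellet whose bacterial 16S rRNA genes (regions V3 and V4) were amplified and sequenced. All mice were female C57BL/6J animals (C57BL/6 in the labels) bought at 8 weeks of age. EAE mice received 50 μg of the myelin peptide MOG35–55 in Complete Freund's Adjuvant under the skin, and 250 ng of pertussis toxin on days 0 and 2. Naive mice received nothing. The EAE group therefore differed from the naive group by peptide, adjuvant and toxin together, and this comparison cannot separate them. Cages held a few mice each and treatment was given by cage, with no cage recorded per sample, so cage and treatment cannot be told apart.

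Clinical scores, which rise as paralysis spreads from the tail to the limbs, differed among the EAE mice. Mice 591 and 593 had a score of 0 and weighed 19.4 and 19.2 g. Mouse 588 had a score of 1 and weighed 18.9 g, mouse 589 a score of 3 and 14.5 g, and mouse 595 a score of 3.5 and 15.8 g. All naive mice (558 to 563) had a score of 0 and weighed between 17.1 and 19.6 g. The score-0 EAE mice were thus as heavy as naive mice, and the mice of scores 3 and 3.5 were lighter than each of the others.

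Total counts ranged from 17326 to 102194 in EAE mice and from 42233 to 65671 in naive mice. EAE mouse 589 was the shallowest sample, and its smallest listed count of an amplicon sequence variant (ASV, an exact sequence inferred from reads) was 106. The next highest minimum was 67, in naive mouse 559, and the other 9 mice had minimums of 2 to 5. A zero in mice 589 and 559 therefore covers a wider range of low levels than in other mice. Levels are given as percent of a mouse's counts. Where all mice of a group were at 0, each was set to its limit, the higher of 3 counts and its smallest listed count, and the fold against the mean limit is given as a lower bound. At 14 dpi, 20 of the 26 families, 55 of the 73 genera and 576 of the 2295 ASVs of the deposited tables had counts.

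Most bacteria of the mouse gut belong to a small set of families. Lactobacillaceae ferment sugars to lactic acid and are abundant in the upper gut and in mouse feces. Ruminococcaceae and Lachnospiraceae are anaerobes of the class Clostridia, many of which break down plant fibre or make short-chain fatty acids such as butyrate, which feeds the cells of the colon. Akkermansia muciniphila, of the Verrucomicrobiaceae, lives on mucin, the protein of intestinal mucus. Prevotellaceae and other Bacteroidales degrade polysaccharides. Changes in such families have been studied in multiple sclerosis and its models because bacterial products reach immune cells of the gut wall.

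The composition of the feces differed between the groups. On genus percents, the mean Bray-Curtis distance, which is 0 for identical and 1 for disjoint communities, was 0.640 between EAE and naive mice. It was 0.363 within EAE mice and 0.397 within naive mice. Group accounted for 52.7% of the squared distances (pseudo-F = 10.0, exact permutation test over all splits of the mice, p = 0.00216, the smallest these groups allow). With Lactobacillaceae left out of the counts, it accounted for 37.6% at the same exact permutation p of 0.00216. On the first principal coordinate, all EAE mice lay on one side of all naive mice.

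**Figure D1:**
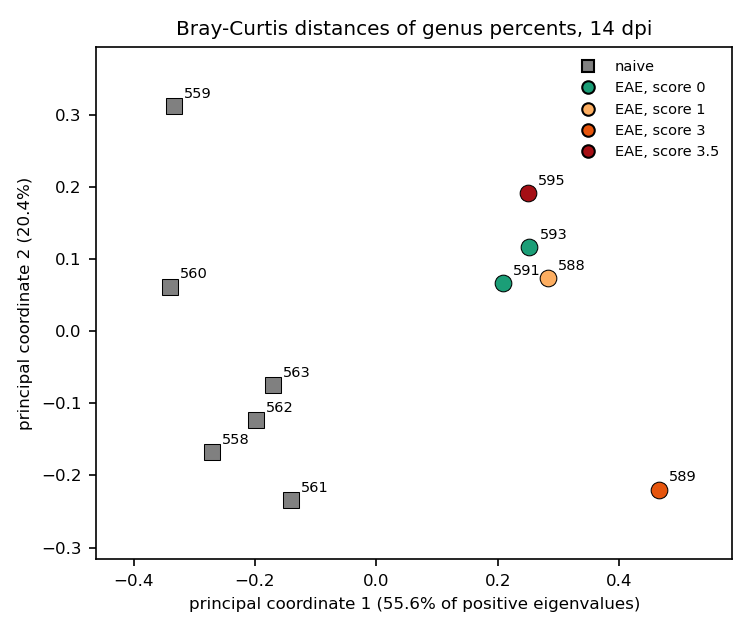
Principal coordinates of Bray-Curtis distances of genus percents at 14 dpi, with 1 point per mouse labelled by its number (squares naive, circles EAE coloured by clinical score). The 5 EAE mice had values of 0.208 to 0.465 on the first coordinate and the 6 naive mice -0.340 to -0.141, and the score-0 mice 591 and 593 lay beside mouse 588 of score 1.

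Diversity was also compared, after reads of each mouse were drawn down to 17326 and ASVs that differed only in their primer bases were joined into primer-trimmed sequences. The Shannon index, which grows with the number of sequences and their evenness, was 3.08, 2.59, 2.84, 3.00 and 2.53 in EAE mice 588, 589, 591, 593 and 595. Naive mice had values from 2.02 to 2.58. The mean was 2.81 ± 0.242 (SD, n = 5) in EAE mice and 2.29 ± 0.201 (SD, n = 6) in naive mice (two-sided exact permutation test, p = 0.00649, adjusted p = 0.0130 over 2 measures). Computed from ASVs as deposited, the index was lower in EAE mice by a difference of -0.0988 (exact permutation test, p = 0.719), so the call rests on joining primer variants. The number of sequences was 41.8 ± 12.6 (SD, n = 5) in EAE and 36.5 ± 6.57 (SD, n = 6) in naive mice, and did not pass the test (exact permutation test, p = 0.411). Mouse 589 had 20 sequences against 42 to 50 in the other EAE mice, and leaving it out gave a difference of 10.75 sequences (p = 0.0190, exact permutation test).

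At the family level, Lactobacillaceae were nearly lost in EAE mice while Peptostreptococcaceae, Ruminococcaceae, Clostridiaceae and Eubacteriaceae were higher, and Coriobacteriaceae were lower. Of 20 families with counts, 4 were higher (20.0%) and 2 lower (10.0%) by a two-sided exact permutation test of the mean percent with Benjamini-Hochberg adjustment. Each had the smallest p possible (exact permutation p = 0.00216, adjusted p = 0.00722), and in each the EAE mice did not overlap the naive mice. With medians in place of means the exact permutation test called 0 families, at adjusted p-values of 0.0649 to 0.202 for these 6, and 0 genera. Several splits keep both medians of separated groups, so this test cannot reach a p as small as 0.00216. With all genera adjusted together, its lack of genus calls was nearly fixed in advance, and no conclusion is drawn from it. The same 6 families (30.0%) were the only ones without overlap. The edgeR quasi-likelihood test, fitted on all 88 samples with counts, called 3 of 23 families tested (13.0%): Lactobacillaceae lower, and Peptostreptococcaceae and Ruminococcaceae higher.

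**Figure D2:**
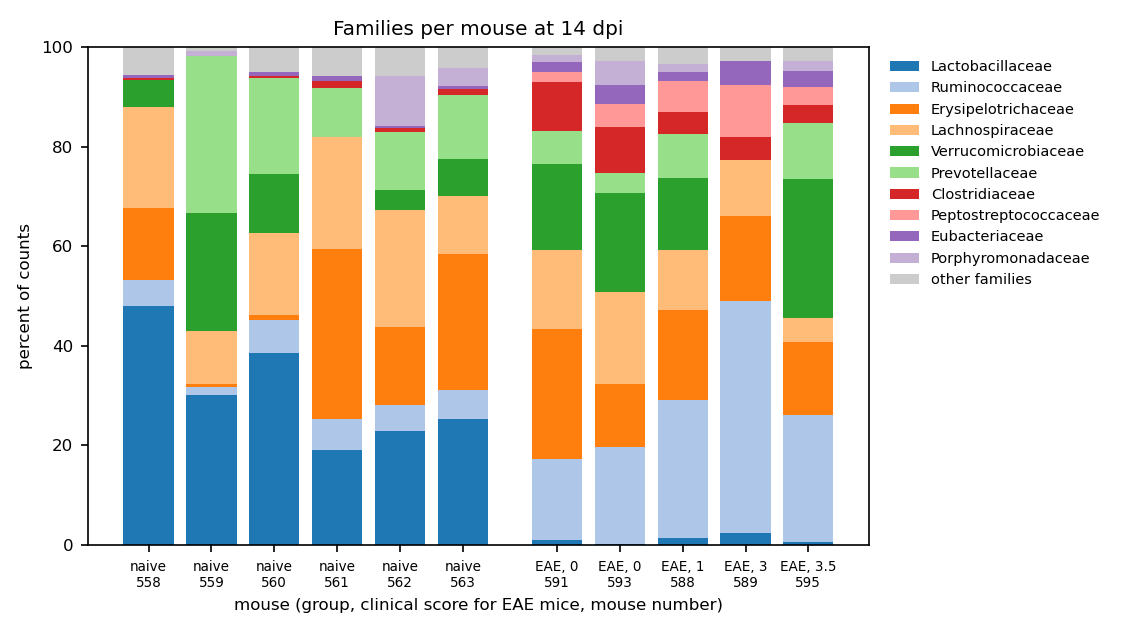
Percent of counts of the 10 families with the highest group means, 1 bar per mouse at 14 dpi, with naive mice on the left and EAE mice on the right in order of clinical score. The Lactobacillaceae segment takes 19.1 to 48.0% in naive mice and 0.258 to 2.34% in EAE mice, and the Ruminococcaceae segment 1.63 to 6.64% and 16.1 to 46.6%.

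Lactobacillus was the single genus of its family in these mice, and all its counts carried the species name Lactobacillus johnsonii, a resident of the rodent gut. It held 1.45% of counts in EAE mouse 588, 2.34% in 589, 1.07% in 591, 0.258% in 593 and 0.602% in 595. Naive mice had 48.0, 30.1, 38.6, 19.1, 22.8 and 25.4% in the order of mice 558 to 563. The lowest naive mouse thus had several times the percent of the highest EAE mouse. The means were 1.14 ± 0.809% (SD, n = 5) and 30.7 ± 10.8% (SD, n = 6), a 26.8-fold ratio. In edgeR, the log2 fold change was -5.32 ± 1.33 (SE, adjusted p = 0.00392) for the genus and -5.32 ± 1.06 (SE, adjusted p = 6.67e-05) for Lactobacillaceae. The other lactic acid bacterium on the list, Enterococcus, was found in EAE mouse 595 alone, at 0.547%. Together the 2 genera summed to 0.258 to 2.34% in EAE mice and 19.1 to 48.0% in naive mice.

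Peptostreptococcaceae showed the opposite pattern and rested on Romboutsia, an anaerobic spore former of the small intestine. Romboutsia made up 6.35% of counts in mouse 588, 10.5% in 589, 2.12% in 591, 4.66% in 593 and 3.62% in 595, and was listed at 0 in all 6 naive mice. Its mean of 5.44 ± 3.20% (SD, n = 5) in EAE mice was 234-fold the mean limit of the naive mice (edgeR adjusted p = 0.00392). Nearly all of it carried the name Romboutsia timonensis.

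Clostridiaceae rose through Clostridium_sensu_stricto_1, the genus that holds the clostridia closest to the type species. Its counts were named Clostridium celatum/disporicum. Mice 588, 589, 591, 593 and 595 had 4.28, 4.61, 9.79, 9.32 and 3.69%, against 0.972% in naive mouse 561, 0.615% in 563 and 0 in the other 4. Here the score-0 mice 591 and 593 had the highest values. The means of 6.34 ± 2.96% (SD, n = 5) and 0.264 ± 0.425% (SD, n = 6) stood in a 24.0-fold ratio (exact permutation adjusted p = 0.0149). The edgeR test did not call the genus (adjusted p = 0.195). Tyzzerella-Clostridium XlVb, which the deposited taxonomy also places in Clostridiaceae, was listed at 0 in all EAE mice and was present at 0.396 to 0.877% in 5 of 6 naive mice, which did not pass the test (exact permutation adjusted p = 0.0833). Of the 3 spore-forming genera on this list, 2 rose by the permutation test, beside 6 of 55 genera (10.9%), and the list summed to 7.31 to 15.1% in EAE mice and 0 to 1.37% in naive mice.

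Ruminococcaceae made up 27.7, 46.6, 16.1, 19.4 and 25.5% of counts in mice 588, 589, 591, 593 and 595. The naive mice had 5.19, 1.63, 6.64, 6.13, 5.33 and 5.82%. The family averaged 27.1 ± 11.8% (SD, n = 5) and 5.12 ± 1.79% (SD, n = 6), with an edgeR log2 fold change of 1.97 ± 0.626 (SE, adjusted p = 0.0175). Without mouse 589 the edgeR log2 fold change was 1.79 and its adjusted p 0.0758, and with only the 11 samples in the fit its adjusted p was 0.0513, while the permutation test still called the family. Counts without Lactobacillaceae gave 27.4% and 7.57%, with the groups in the same order (exact permutation adjusted p = 0.00823).

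Within Ruminococcaceae, 15 genera had counts, of which 10 had the higher mean in EAE mice and 5 the lower. The median difference over these genera was 0.144 percentage points, beside 0.0131 over all 55 genera with counts. The permutation test called 3 of them higher and none lower, beside 6 higher (10.9%) and 3 lower (5.45%) among all genera. Ruminococcaceae_UCG-014, a group known by a code name, was the most abundant: 10.9, 16.9, 7.82, 10.5 and 13.1% in mice 588, 589, 591, 593 and 595, and 0 to 4.04% in naive mice. Its means were 11.8 ± 3.39% (SD, n = 5) and 1.17 ± 1.48% (SD, n = 6), a 10.1-fold ratio (exact permutation adjusted p = 0.0149, edgeR adjusted p = 0.201).

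Ruminiclostridium, which includes degraders of cellulose, made up 9.34, 12.3, 3.21, 3.00 and 4.37% of counts in the same order of EAE mice. It was listed at 0 in all naive mice. With a mean of 6.45 ± 4.17% (SD, n = 5), it was at 277-fold the mean limit of the naive mice (edgeR adjusted p = 0.00597). Counts named Ruminiclostridium straminisolvens averaged 2.47% and those without a species name 3.75%. Candidatus_Soleaferrea/Massilioclostridium rose from 0.119 ± 0.186% (SD, n = 6) to 0.984 ± 0.666% (SD, n = 5), with naive mice up to 0.388% overlapping EAE mouse 593 at 0.338% (exact permutation adjusted p = 0.0265). This last call was lost without any of EAE mice 588, 589, 591 and 595 or naive mice 559 to 563, with adjusted p-values of 0.0571 to 0.0970 in the exact permutation test. It was also lost with Lactobacillaceae left out of the counts (exact permutation adjusted p = 0.0877). Within this genus, Soleaferrea massiliensis averaged 0.972% in EAE mice and 0 in naive mice. Counts named Massilioclostridium_coli/methylpentosum went the other way, at 0.0118% in EAE mice and 0.119% in naive mice.

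Ruminococcus, another fibre degrader, was at 3.80, 14.5, 2.39, 2.66 and 3.06% in EAE mice and 0 to 3.37% in naive mice. The high value of the shallow mouse 589 set its mean of 5.28%, and the groups overlapped (exact permutation adjusted p = 0.119). Over the plant fibre list, 2 of 5 genera had the higher mean in EAE mice beside 29 of all 55. Ruminiclostridium alone passed either test, beside 16.4% of genera called by the permutation test and 6.15% by edgeR. The summed level of the list was 9.57 to 26.8% in EAE mice and 1.48 to 31.5% in naive mice, and so overlapped.

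Eubacterium, the genus behind Eubacteriaceae here, was named Eubacterium coprostanoligenes, a species known for reducing cholesterol. It was at 1.67, 4.95, 1.89, 3.79 and 3.12% in EAE mice 588, 589, 591, 593 and 595 and at 0 to 1.17% in naive mice. This was a 5.34-fold ratio of the means (exact permutation adjusted p = 0.0149, edgeR adjusted p = 0.545).

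Fewer genera were lower than higher in EAE mice by the permutation test. Lachnospiraceae_NK4A136-Clostridium XlVa, from a group that includes butyrate producers, was at 1.51, 0, 2.90, 2.92 and 0.442% in EAE mice. Naive mice had 3.61 to 5.65%, with no overlap (2.85-fold lower mean in EAE mice, exact permutation adjusted p = 0.0149). Adlercreutzia, an actinobacterium of the Coriobacteriaceae that converts plant isoflavones to equol, was at 0.441% in mouse 588, 0.464% in mouse 591 and 0 in the other EAE mice. All naive mice had 0.734 to 1.26%, a 4.82-fold ratio of the means (exact permutation adjusted p = 0.0149). The 0 of mouse 589 stands beside its limit of 0.612% for 1 ASV, and the Adlercreutzia sequence was joined from 15 ASVs. For that mouse, the lack of overlap in Adlercreutzia and Coriobacteriaceae is therefore not secure. The same 5 EAE mice were at 0 for Adlercreutzia at -2 and 8 dpi. Naive mice averaged 0.149% at -2 dpi and 0.872% at 14 dpi. The change since -2 dpi (EAE minus naive) was -0.541 percentage points. In edgeR, the log2 fold change between the groups was -10.2 at -2 dpi and -2.79 at 14 dpi. Its change of 7.40 thus had the opposite sign and was not called (edgeR adjusted p = 0.199). Neither genus was called by edgeR (adjusted p = 0.440 and 0.701). Adlercreutzia, Eubacterium and Candidatus_Soleaferrea/Massilioclostridium are named because the permutation test called them, after their values were seen.

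Several genera fell short of the adjusted threshold although 5 of 6 naive mice carried them. Hungatella was at 0 in 3 EAE mice and at 0.438 and 0.645% in mice 591 and 595, and at 1.24 to 3.61% in the naive mice other than 559, where it was 0 (exact permutation adjusted p = 0.101). Peptococcus-rc4-4 reached 0.427% in EAE mice and 1.09 to 2.02% in the same 5 naive mice (exact permutation adjusted p = 0.101). Naive mouse 559 also had no counts of Turicibacter, Ruminococcus or Oscillibacter and the highest percent of Prevotella, 31.5%. With EAE mouse 589 and naive mouse 559 both left out, the permutation test called 8 families and 13 genera.

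Lachnospiraceae as a family held 4.94 to 18.4% in EAE mice and 10.6 to 23.6% in naive mice and were not called (exact permutation adjusted p = 0.361). Of its 19 genera with counts, 8 had the higher and 11 the lower mean in EAE mice, with a median difference of -0.0904 percentage points. Only NK4A136-Clostridium XlVa passed the permutation test (16.4% of all genera did), and only Anaerostipes passed edgeR (6.15% of all genera did).

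Anaerostipes makes butyrate from lactate. It was at 2.45% in mouse 588, 6.22% in 589 and 0.881% in 591, and was listed at 0 in mice 593 and 595 and in all naive mice. Its mean in EAE mice was 82.0-fold the mean limit of the naive mice (edgeR adjusted p = 0.00541), but the 5 EAE mice overlapped the naive mice at 0 (exact permutation adjusted p = 0.175). The edgeR call was lost with only the 11 samples in the fit (adjusted p = 0.0524) and with limma on centred log ratios (adjusted p = 0.0647). Before immunization, at -2 dpi, edgeR already called Anaerostipes higher in the EAE group (adjusted p = 0.0271), through 3.92% in mouse 588 alone. Naive mice were at 0 on both days, so edgeR could not estimate the change since then (log2 fold change 0.921, SE 1957). From -2 to 14 dpi, mice 589 and 591 went from 0 to 6.22 and 0.881%, and mouse 588 from 3.92 to 2.45%. Roseburia, another butyrate producer, was at 0 to 4.16% in EAE mice and 0 to 2.65% in naive mice. Coprococcus was at 2.68, 0, 1.06, 2.04 and 0.716% in EAE mice and at 0 to 0.991% in naive mice (exact permutation adjusted p = 0.175). Over the butyrate list, 6 of 7 names had counts, 5 of them with the higher mean in EAE mice (29 of 55 over all genera), and none passed the permutation test, beside 16.4% of all genera. The summed level was 1.56 to 6.94% in EAE mice and 0.606 to 3.45% in naive mice.

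The remaining abundant genera overlapped between the groups. Akkermansia, the only mucin degrader listed, was at 14.6, 0, 17.4, 19.9 and 27.8% in EAE mice and between 0 and 23.7% in naive mice (exact permutation adjusted p = 0.417). Prevotella was at 8.93, 0, 6.64, 3.91 and 11.2% in EAE mice and between 0 and 31.5% in naive mice (exact permutation adjusted p = 0.357). Both were absent from the shallow mouse 589, in which all counts belonged to Firmicutes. Turicibacter, of the Erysipelotrichaceae, averaged 17.0 ± 5.02% (SD, n = 5) and 15.4 ± 13.7% (SD, n = 6), with a wide spread among naive mice (exact permutation adjusted p = 0.926). None of the 3 Erysipelotrichaceae genera, the 2 Bacteroidales genera or the 3 cell wall-less Tenericutes with counts passed either test.

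**Figure D3:**
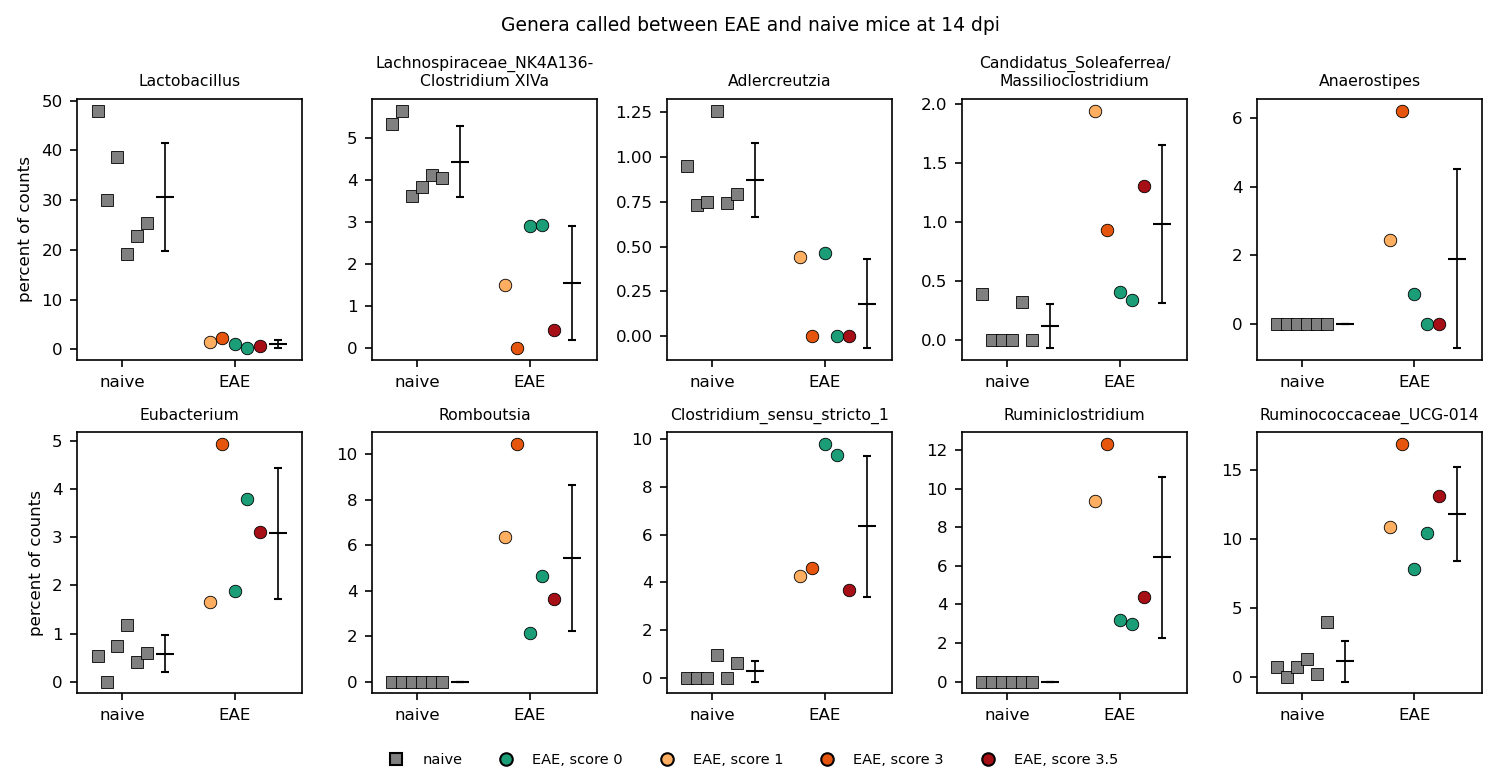
Percent of counts per mouse for the 10 genera called by the permutation test or by edgeR at 14 dpi, each panel with its own linear axis (squares naive, circles EAE coloured by clinical score, bars mean ± SD). Lactobacillus, Lachnospiraceae_NK4A136-Clostridium XlVa and Adlercreutzia are lower in every EAE mouse than in every naive mouse, and Eubacterium, Romboutsia, Clostridium_sensu_stricto_1, Ruminiclostridium and Ruminococcaceae_UCG-014 are higher.

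The genus calls were 9 of 55 by the permutation test (16.4%) and 4 of 65 by edgeR (6.15%), with 8 of 55 genera not overlapping (14.5%). Lactobacillus, Romboutsia and Ruminiclostridium were called by both. Leaving out any of naive mice 560 to 563 gave 0 genus calls by the permutation test, with the smallest adjusted p at 0.0536 to 0.0546. In these fits 252 splits remain and the smallest exact permutation p is 0.00794, while the same 8 genera still did not overlap.

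Below the genus, the deposited ASVs still carried their primers, whose mixed bases split a bacterial sequence into many variants. Joining those that were identical between the primers gave 501 sequences, of which 162 had counts at 14 dpi. Of these, 60 were found in EAE mice only, 49 in naive mice only and 53 in both. Sequences of EAE mice only held 16.8 to 42.1% of an EAE mouse's counts, and those of naive mice only 1.85 to 17.1% of a naive mouse's counts. Only 4 sequences were present in all 5 EAE mice and no naive mouse, and none in all 6 naive mice and no EAE mouse.

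By edgeR, 6 of 203 sequences were higher in EAE mice (2.96%) and 0 were lower (0.0%), with 77 at an unadjusted p under 0.05. All 6 were at 0 in every naive mouse. They were named Romboutsia timonensis (at least 234-fold higher, edgeR adjusted p = 0.0140), Ruminococcaceae_UCG-014 (at least 235-fold, adjusted p = 0.0191) and Anaerostipes (at least 74.5-fold, adjusted p = 0.0140). Ruminiclostridium (267-fold, edgeR adjusted p = 0.0191), Lachnospiraceae_NK4A136/Hungatella (41.6-fold, adjusted p = 0.0461) and Eubacterium F xylanophilum (26.0-fold, adjusted p = 0.0461) followed. The call count was sensitive to the naive mice: it was 2 without any of mice 558 to 562 and 0 without mouse 563. DESeq2 called 35 sequences higher (17.2%) and 28 lower (13.8%).

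The Ruminococcaceae_UCG-014 sequence was at 3.01, 6.29, 1.11, 5.18 and 11.8% in mice 588, 589, 591, 593 and 595. Naive mice carried the genus only through other sequences. A single sequence of 427 bases held all counts of Lactobacillus johnsonii that were above 0 in EAE mice, and it was joined from 28 ASVs.

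Single ASVs gave no call by edgeR, at 0 of 648 (0.0%), with 281 at an unadjusted p under 0.05, whereas DESeq2 called 110 higher (17.0%) and 96 lower (14.8%). In 26 of the 576 ASVs with counts (4.51%), the EAE mice did not overlap the naive mice. All 26 were primer variants of Lactobacillus johnsonii and all were lower in EAE mice, so they repeat the result of the genus.

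The score-0 EAE mice 591 and 593 had not developed paralysis by 14 dpi, and their feces were compared with naive mice on their own. Their mean distance to the naive mice was 0.570 and 0.616, beside 0.610, 0.797 and 0.608 for mice 588, 589 and 595 of scores 1, 3 and 3.5. Naive mice had mean distances of 0.344 to 0.495 to each other. Score-0 mice differed from naive mice (pseudo-F = 5.45, exact permutation test over 28 splits, p = 0.0357, the smallest possible), as did the mice of higher scores (pseudo-F = 8.28, exact permutation test over 84 splits, p = 0.0119, the smallest possible). Between score-0 and higher-scored EAE mice the exact permutation p was 0.200 (10 splits, which allow no p below 0.1).

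Lactobacillus was already low in both score-0 mice, which had the percents 1.07 and 0.258 given above, beside a mean of 1.47% in the 3 higher-scored mice. For Lactobacillaceae, edgeR gave a log2 fold change of -6.07 ± 1.69 (SE, adjusted p = 0.00646) for score-0 mice against naive mice and -4.97 ± 1.31 (SE, adjusted p = 0.00342) for higher-scored mice. Each of these comparisons used the same naive mice. At the genus level, the adjusted p-values of Lactobacillus were 0.0886 and 0.0517.

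Romboutsia and Ruminiclostridium were present in both score-0 mice and called there by edgeR. Romboutsia averaged 3.39% in score-0 mice and 6.81% in higher-scored mice (edgeR adjusted p = 0.0144 and 0.00711 against naive mice). Ruminiclostridium averaged 3.10% and 8.68% (edgeR adjusted p = 0.0265 and 0.00820). Anaerostipes, present in score-0 mouse 591 but not in 593, was called as well (edgeR adjusted p = 0.0272 and 0.00711), as it was in the EAE group before immunization. These 3 were the genera called in score-0 mice (4.62% of 65), and the same 3 were called in higher-scored mice. Among 23 families, edgeR called 2 in score-0 mice (8.7%), Lactobacillaceae and Peptostreptococcaceae, and 3 in higher-scored mice (13.0%), those and Ruminococcaceae.

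All 6 families called by the permutation test, and 8 of the 9 genera, had both score-0 mice beyond the range of the naive mice. That follows for groups that do not overlap and is given as a description. Over all 55 genera, 11 had both score-0 mice beyond the naive range in the direction of the group difference, and 9 had all 3 higher-scored mice beyond it. These counts are not a like comparison, since the condition is easier to meet with 2 mice than with 3. The direction also came from a group mean that includes the same mice. The 3 genera outside the naive range in both score-0 mice but overlapping in the group were Coprococcus, Ruminococcaceae_UCG-010 and Lachnospiraceae-Clostridium XlVa. The last was at 1.78 and 1.28% in mice 591 and 593, at 0 in every higher-scored EAE mouse, and at 0.973% in 1 naive mouse.

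Ruminococcaceae stood between the groups in score-0 mice. They held 16.1 and 19.4% in mice 591 and 593, with 25.5 to 46.6% in the higher-scored mice and at most 6.64% in naive mice. The edgeR test gave log2 fold changes of 1.43 ± 0.768 (SE, adjusted p = 0.369) for score-0 and 2.24 ± 0.685 (SE, adjusted p = 0.0119) for higher-scored mice, while the difference between them was not called (edgeR adjusted p = 1). Between higher-scored and score-0 mice, edgeR called 0 of 23 families and 0 of 65 genera, with 0 and 2 at an unadjusted p under 0.05. DESeq2 called 1 family (4.35%) and 11 genera (16.9%) there.

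The same mice were also sequenced before 14 dpi. Their numbers in the labels change at 14 dpi, so each EAE mouse was followed by the subject number that the sample table gives it. Lactobacillus was at 32.0% in mouse 591 and 30.6% in mouse 593 at -2 dpi, the score-0 mice, and at 3.97% and 39.5% at 8 dpi. The other EAE mice (588, 589 and 595) had 40.8, 40.3 and 19.7% at -2 dpi and 4.93, 14.9 and 13.8% at 8 dpi. So 4 of 5 mice had less Lactobacillus at 8 dpi than before immunization, and all 5 had less at 14 dpi than at 8 dpi. The exception at 8 dpi, mouse 593, had a sample with few genera, described below. Naive mice averaged 34.1 ± 12.4%, 29.3 ± 21.1% and 30.7 ± 10.8% (SD, n = 6) at -2, 8 and 14 dpi.

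Ruminiclostridium was at 0 in all EAE mice at -2 dpi, and at 3.17% in mouse 588 and 3.16% in mouse 591 at 8 dpi. It was present in all 5 at 14 dpi. Romboutsia was already present at -2 dpi in mouse 588 (1.90%) and mouse 595 (1.27%), and it appeared in mice 589, 591 and 593 only at 14 dpi. Ruminococcaceae_UCG-014 reached 48.0% in score-0 mouse 593 and 17.6% in score-0 mouse 591 at 8 dpi, above their values of 10.5 and 7.82% at 14 dpi. The 8 dpi sample of mouse 593 was held by this genus, Lactobacillus (39.5%) and Eubacterium (12.5%). The other called genera were at 0 in it. Limits of detection were worked out for 14 dpi only, so the high percents and zeros of that sample are not secure.

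**Figure D4:**
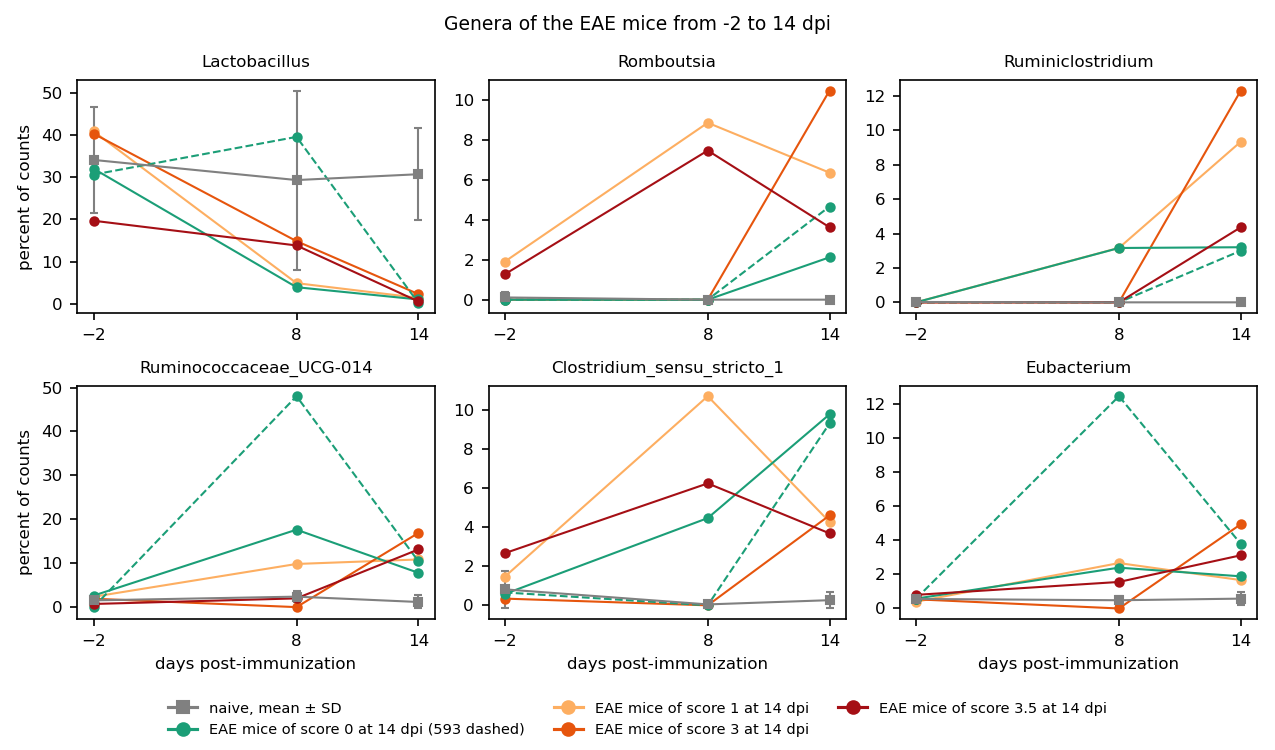
Percent of counts at -2, 8 and 14 dpi for 6 genera, with 1 line per EAE mouse coloured by its score at 14 dpi (mouse 593 dashed) and gray squares for naive mice (mean ± SD, n = 6). All 5 EAE lines of Lactobacillus end between 0.258 and 2.34% at 14 dpi, while those of Ruminiclostridium start at 0 and end between 3.00 and 12.3%.

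The change since -2 dpi was tested as the difference between groups at 14 dpi minus that at -2 dpi. In edgeR, 6 of 65 genera (9.23%) and 4 of 23 families (17.4%) passed. Lactobacillus changed by -26.9 percentage points more in EAE mice than in naive mice (edgeR adjusted p = 0.0354). Romboutsia changed by 5.02 points (edgeR adjusted p = 0.0107) and Ruminiclostridium by 6.47 points (edgeR adjusted p = 0.00142). At -2 dpi, Romboutsia was found in 1 naive mouse at 0.666% and Ruminiclostridium in 1 naive mouse at 0.132%. These enter the test: the edgeR log2 fold change of Ruminiclostridium was 14.7 at 14 dpi and 22.2 for the change. The remaining 3, Enterococcus, Lachnospiraceae_UCG-001 and Clostridiales_vadinBB60_NA, changed by at most 0.472 points in size. With the subject as a replicate block, 1 family, Lactobacillaceae, and 0 genera were called.

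Mice given the adjuvant alone (CFA), without peptide or toxin, had 25.7 ± 10.1% Lactobacillus (SD, n = 6) at 14 dpi, with a range of 14.5 to 37.6% above every EAE mouse. Romboutsia was at 0 in all 6 CFA mice, and Ruminiclostridium was at 0.240% in 1 of them. Anaerostipes was present in all 6, at 4.79 ± 2.66% (SD, n = 6), and so was not restricted to mice given the peptide. Ruminococcaceae were at 10.8 ± 2.46% (SD, n = 6) in CFA mice. Their range of 7.59 to 13.8% lay above every naive mouse and below every EAE mouse (edgeR adjusted p = 0.703 against naive mice). Coriobacteriaceae were found in 3 CFA mice, at a group mean of 0.269%. Eubacteriaceae averaged 1.05% and reached 2.29%, within the EAE range. Clostridiaceae went the other way from EAE mice, at 0.0766% beside 0.776% in naive mice.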

How the data were processed

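The authors amplified regions V3 and V4 of 16S rRNA genes from fecal DNA, sequenced them on a MiSeq, inferred ASVs with DADA2 and deposited raw read counts per ASV and sample, neither rarefied nor scaled. They also deposited taxonomic names curated from several databases, and a sample table with subject numbers.

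Counts of 88 samples with reads, in 15 groups of treatment and day, were summed by family and genus. ASVs holding both primers (2274 of 2295) were trimmed and identical ones joined. Samples were grouped by their labels, and the water controls were not analysed here. The edgeR 4.0.16 quasi-likelihood test (R 4.3.3, normalization by TMMwsp on the genus table, a minimum of 3 samples with counts per taxon, all groups in 1 fit) used Benjamini-Hochberg adjustment at 0.05. DESeq2 1.42.0 (size factors of type poscounts), limma 3.58.1 on centred log ratios with a pseudocount of 0.5, total counts, no filter, fewer samples and fewer mice were alternatives. Mean percents and distances were tested with two-sided exact permutation tests in Python 3.11.15 (numpy 2.4.6, pandas 2.3.3). The edgeR and permutation code was tested on simulated data. The edgeR test returns no SE. Each SE given with it is the absolute log2 fold change divided by the square root of the test's F statistic. The limits (at least 3 counts, for 1 ASV) were 0.00358 to 0.612% of a mouse's counts. They cover counting error only, since PCR reads are not independent molecules. The 11 samples of 14 dpi are separate mice, but the fit of all groups holds repeated samples of the same mice, which it takes as independent.

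Named taxa were families called, genera called by edgeR, genera of the taxon lists with a mean of at least 1% in either group, and called sequences; genera called by the permutation test were added. Some listed genera were matched by the start of their deposited name. The members and lists were chosen with earlier results of these data known.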

Additional observations from a re-analysis of the deposited data

Results flagged for a closer look

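Among 30 sets of values of a group that were examined for a single distant mouse, 3 had one, judged by its gap relative to the range. A chance rate of about 1 in 20 would need independent, normally distributed values. These sets share mice and some are nested, so that rate does not hold here. Naive mouse 559 had 1.63% Ruminococcaceae, with the next naive mouse at 5.19%. Naive mouse 563 had 4.04% Ruminococcaceae_UCG-014, with the next at 1.31%. EAE mouse 589 had 20 sequences, with the next EAE mouse at 42. Mouse 589 also had the fewest counts and naive mouse 559 had a high minimum count, and the part of either in these values was not tested.

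For 6 genera, EAE and naive mice differed in their change since -2 dpi by edgeR with all groups in the fit (adjusted p in parentheses). In percentage points, EAE minus naive, it was -26.9 for Lactobacillus (0.0354), -0.472 for Lachnospiraceae_UCG-001 (0.0107), -0.223 for Clostridiales_vadinBB60_NA (0.0107), 0.219 for Enterococcus (0.0107), 5.02 for Romboutsia (0.0107) and 6.47 for Ruminiclostridium (0.00142). Enterococcus was found in 1 EAE mouse at 14 dpi and in 1 naive mouse at -2 dpi. Among naive mice at -2 dpi, Romboutsia and Ruminiclostridium were each found in 1. With the subject as a replicate block, 0 of these 6 genera were called.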

How the results depend on the processing

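Community distance passed the exact permutation test under each alternative, with 29.9 to 62.6% of squared distances between groups (50.6 to 57.1% without single mice). edgeR calls were 2 to 4 families, 4 to 5 genera, 0 to 6 sequences and 0 ASVs without single mice, beside 3, 4, 6 and 0. DESeq2 called 5 families, 16 genera, 63 sequences and 206 ASVs. Centred log ratios called 8 genera. With only the 11 samples, 11 sequences and 58 ASVs were called. Without a filter, 0 sequences were called, and 0 without mice 589 and 559 together, an alternative chosen after seeing the data. Permutation calls were 6 to 7 families and 0 to 13 genera without single mice, and the difference of medians gave 0 families and 0 genera. The test of medians cannot reach as small a p as that of means. The Shannon difference was 0.444 to 0.580 without single mice and turned to -0.0988 with ASVs as deposited. The difference in sequences was 3.00 to 10.75 without single mice (10.75 without EAE mouse 589) and 8.45 without mice 589 and 559. Score-0 calls rose from 2 families and 3 genera to 4 and 12 by DESeq2. Changes since -2 dpi fell from 4 families and 6 genera to 1 and 0 with the subject as a replicate block. The causes were not tested. No paired analysis was possible between EAE and naive mice at 14 dpi because they are different animals that share no number. The shallow mouse 589 and the group sizes limit what zeros and p-values can show.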
